A study of Homo sapiens with 12 samples.

Results

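Empagliflozin (Empa) was compared with control on the 2 slides titled HK2 01 and RPTEC 02, each with 1 control array and 1 Empa array, 4 of the 12 arrays of the series. The slides were chosen because their arrays resembled each other in signal more than they resembled the other slide of the same cell line, and each Empa array was set against the control array of its own slide. Both lines come from the human proximal tubule. HK-2 was made immortal with genes of a papillomavirus, and RPTEC/TERT1 with telomerase. The control group is the HK-2 replicate 1 and the RPTEC/TERT1 replicate 2 culture without a ligand, and the Empa group is the same line and replicate number with 500 nM Empa for 24 h. All 4 cultures were kept in normal glucose and starved of serum and supplements for 24 h beforehand. HK-2 cells grew in keratinocyte medium and RPTEC/TERT1 cells in supplemented DMEM/F-12, so the line and its medium cannot be told apart. The remaining arrays carried IL-1β-treated cells of the same lines and the other replicates. Each line is a single immortalized line, and each line and treatment has 1 array here, so the slides are the only replicates and their number limits the precision.

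SGLT2, encoded by SLC5A2, takes up filtered glucose together with sodium across the brush border of the early proximal tubule, and SGLT1, encoded by SLC5A1, takes up what is left further along. Empa blocks SGLT2 and lowers glucose and sodium entry into these cells. The sodium gradient that drives both carriers is kept by the Na+/K+-ATPase at the basal side, and claudin-2 lets sodium and water pass between the cells.

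The line names go against the signals. Across the probes measured, the control arrays of the 2 slides correlated with a Pearson's r of 0.984, while r was 0.812 between the controls titled HK-2 and 0.809 between those titled RPTEC/TERT1. This likeness is what the slides were chosen by and is given as a description. A label field also names HK-2 for every array, so a line name below means only the title of the array. Each slide was scanned at its own time and held control, IL-1β and Empa in the same positions, so the position on the slide and the treatment cannot be told apart. Of the epithelial markers 10 of 12 were well above background on all 4 arrays, among them CDH16, PAX8 and EPCAM. Of the proximal tubule markers 8 of 14 were, including LRP2, AQP1 and SLC5A2, while CUBN, SLC34A1, SLC22A6 and HNF4A were not. Of the markers of other cell types, 2 of 12 passed for loop, distal tubule and collecting duct, 3 of 6 for podocytes, 1 of 7 for endothelium, 2 of 7 for fibroblasts and 2 of 7 for leukocytes.

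EGR1, the gene with the largest increase that both slides shared, and EDN1, the gene of endothelin-1 that the study followed up, are shown with the 250 bases before their start sites, from RefSeq on GRCh38.p14, in lower case with CArG boxes in capitals. The CArG box is the site of serum response factor, which drives EGR1 when growth signals arrive. The EGR1 stretch, chr5:138465229-138465478 on the + strand, holds 2 such boxes, at -105 to -96 and -83 to -74. The EDN1 stretch, chr6:12287769-12288018 on the + strand, holds none of the motifs searched.
EGR1: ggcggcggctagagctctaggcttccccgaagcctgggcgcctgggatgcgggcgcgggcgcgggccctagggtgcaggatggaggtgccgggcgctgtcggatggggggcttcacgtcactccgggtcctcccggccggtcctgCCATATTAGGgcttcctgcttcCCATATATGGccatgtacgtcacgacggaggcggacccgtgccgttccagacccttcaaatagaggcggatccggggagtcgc
EDN1: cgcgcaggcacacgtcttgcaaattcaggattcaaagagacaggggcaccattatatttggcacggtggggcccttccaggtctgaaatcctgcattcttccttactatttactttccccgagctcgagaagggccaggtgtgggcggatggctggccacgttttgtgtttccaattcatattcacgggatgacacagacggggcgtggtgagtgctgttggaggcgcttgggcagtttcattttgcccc
Of 27305 promoter stretches of this length, 1.14% hold a CArG box on either strand. The other motifs were the AP-1 site TGACTCA, the CRE TGACGTCA, the TATA box TATAAA, the EGR1 site GCGTGGGCG, the HNF1 site and the NF-κB site by their names. A match is only a run of letters in this window.

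The Empa array of the HK-2 slide was noisy. On this slide 15.8% of the 17027 probes that were well above background on all 4 arrays differed more than 2-fold between Empa and control, against 2.29% on the RPTEC/TERT1 slide. The standard deviation of the log2 differences was 0.753 and 0.395, respectively. Different probes of the same gene spread with a median SD of 0.471 on the HK-2 slide and 0.186 on the RPTEC/TERT1 slide, and on the other slides of the series it was 0.159 and 0.202. Repeated spots of the same probe did not show this: their median SD over 10 spots was 0.1157 on the HK-2 Empa array and 0.1152 on its control. All probes of a gene went in the same direction for 48.8% of the 2672 genes with 2 or more probes on the HK-2 slide and for 59.7% on the RPTEC/TERT1 slide. Signals were therefore compared gene by gene, over all its probes and both slides.

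**Figure D1:**
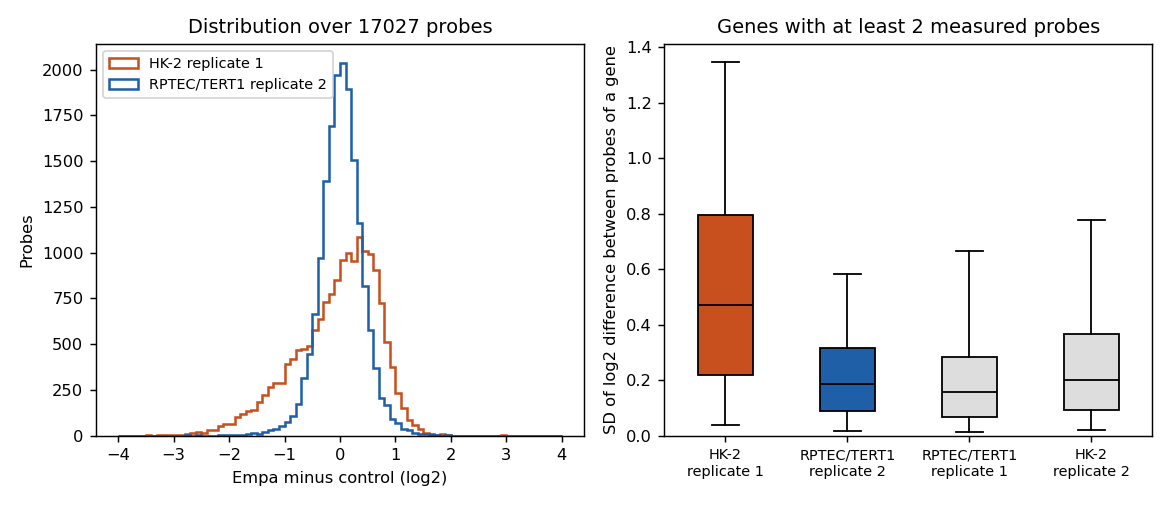
Left, number of probes by Empa minus control difference (log2) on the 2 slides; right, for each of the 4 slides the SD (log2) of this difference between the probes of 1 gene, with the median as line, quartiles as box and the 5th and 95th percentiles as whiskers. The HK-2 replicate 1 slide has the wider histogram, with a longer tail to the left, and a median SD of 0.471 against 0.186 for RPTEC/TERT1 replicate 2.

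The 2 slides shared a part of the Empa differences. With Empa 5786 probes (34%) were higher and 4650 (27.3%) lower on both slides. Across the 17027 probes, the log2 differences of the slides correlated with r = 0.349, and across the 2672 genes with 2 or more probes, taken as means of their probes, with r = 0.449. These are descriptions across probes and genes, which share their arrays and are not replicates. On the RPTEC/TERT1 slide 197 probes were more than 2-fold lower with Empa, and 94.4% of them were also lower on the HK-2 slide, where 46.4% of all probes were. Another 193 probes were more than 2-fold higher there, and 65.3% of them were also higher on the HK-2 slide, where 53.6% of all probes were. Looked up the other way, 68.9% of the probes more than 2-fold lower on the HK-2 slide were also lower on the RPTEC/TERT1 slide, and 87.7% of those more than 2-fold higher were also higher there. These shares were not tested. Probe composition moved with the differences. The Spearman correlation of the difference with the probe's GC content was -0.293 on the HK-2 slide and -0.189 on the RPTEC/TERT1 slide, and the median difference ran from 0.45 for probes under 35% GC to -0.21 for those with 50% or more on the HK-2 slide. The part of GC content in the results was not tested beyond the fit with it taken out, given below.

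With the slide as a block, 344 probes (2.02%) passed an adjusted p of 0.05 in limma, 45 higher (0.264%) and 299 lower (1.76%) with Empa. Each probe had 1 residual degree of freedom, and limma shares the spread across probes. In this fit it estimated infinite prior degrees of freedom, which gives the shared spread all the weight. All probes therefore had 1 common standard error of 0.362, so the call was in effect a mean log2 difference of 1.19 or more in size. Among the called probes 330 had the same direction on both slides and 14 did not. They belonged to 311 genes, 40 with a probe that rose (0.322% of the 12415 genes measured) and 271 with one that fell (2.18%). In 246 of these genes all probes had the same direction on both slides, which counts genes with 1 measured probe. Only 113 of the 311 had 2 or more measured probes, and in 57 of those all probes had the same direction on both slides. The count depended on the fit: with the probe's GC content taken out 26 probes passed, 3 higher and 23 lower, and without the slide as a block 0 did, with 1340 at an unadjusted p under 0.05. Scaled to the 75th percentile of detected probes, the prior degrees of freedom were 12.81 and 9 probes passed. The low p-values of the main fit thus rest on its estimate of the shared spread.

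**Figure D2:**
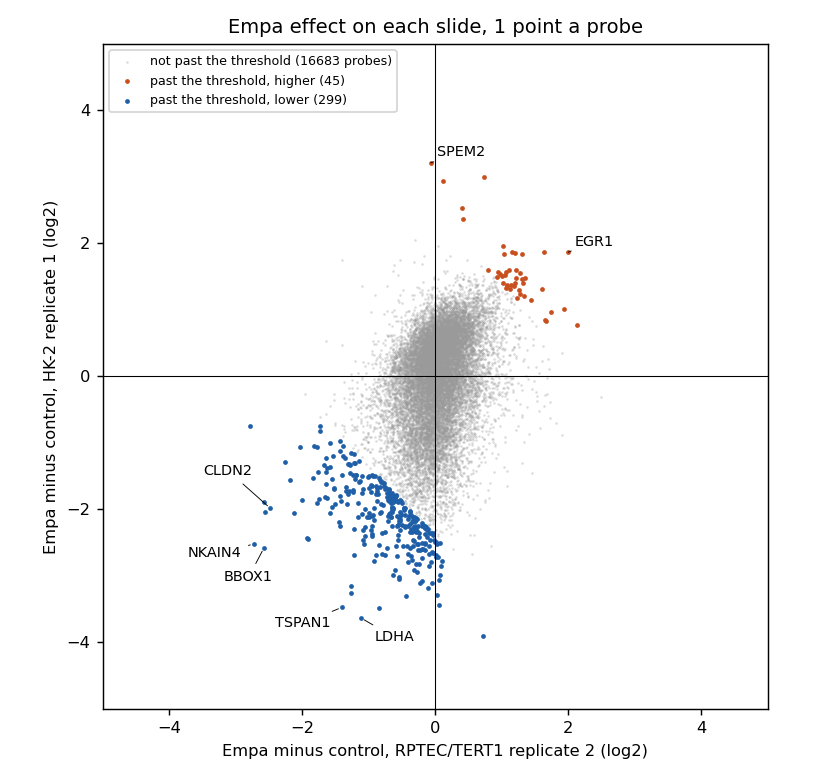
Empa minus control (log2) on the HK-2 replicate 1 slide (vertical) against the RPTEC/TERT1 replicate 2 slide (horizontal), 1 point for each of 17027 probes, with 45 probes past the threshold higher and 299 lower in colour. EGR1 lies at the upper right, BBOX1, NKAIN4 and CLDN2 lie far out on both axes at the lower left, and SPEM2 is high on the HK-2 slide only (3.21 against -0.07).

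Without a test, all probes of 3749 genes (30.2%) were higher on both slides and all probes of 2920 (23.5%) were lower. A smallest change of 0.5 on the log2 scale, over every probe of the gene and both slides, was reached by 467 higher genes (3.76%) and 413 lower genes (3.33%). Of the 2672 genes with several probes, 345 (12.9%) were higher by all of them and 274 (10.3%) lower, and 10 higher (0.374%) and 24 lower (0.898%) reached this limit. Close to this limit lay ARRDC4 at 0.5005, FOXL2NB at 0.5006 and SMYD4 at 0.5008 inside, and ARAP1 at 0.4996, DNAJB13 at 0.4998 and PAQR3 at 0.4999 outside.

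BBOX1, the enzyme of the last step of carnitine synthesis and abundant in kidney tubules, had the largest smallest change of the lower genes. Its log2 level, relative to the 75th percentile of the array, was 2.44 on the HK-2 control array and -0.14 with Empa, and 1.96 and -0.62 on the RPTEC/TERT1 arrays. Both control arrays lay above both Empa arrays. The difference was -2.58 on each slide, 0.167-fold of control (adjusted p = 8.66e-09, limma, or 0.00825 with GC content taken out), and its probe, on chromosome 11, was not well above background on the other 2 slides of the series. NKAIN4, which binds the beta subunit of the Na+/K+-ATPase, had levels of 2.72 and 0.20 on the HK-2 slide and of 2.07 and -0.66 on the RPTEC/TERT1 slide, control before Empa. It fell to 0.174-fold and 0.151-fold of control (adjusted p = 6.78e-09, limma). The same probe was lower with Empa on the other slides too, by -0.97 and -0.83, while a dimmer NKAIN4 probe was not measured on all 4 arrays.

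CLDN2, the claudin of the proximal tubule's sodium and water path, went from 2.22 to 0.24 on the HK-2 slide and from 2.09 to -0.40 on the RPTEC/TERT1 slide. The decrease to 0.253-fold and 0.179-fold of control passed the test (adjusted p = 1.44e-06, limma), also with GC content taken out (0.0114). It was of similar size on the slides that were not used to name the gene, at -1.82 for RPTEC/TERT1 replicate 1 and -1.88 for HK-2 replicate 2. KCNN4, a calcium-activated potassium channel, went from -1.30 to -3.73 and from -1.35 to -3.28, with control above Empa on both slides (adjusted p = 2.82e-06). On the other slides its differences were -0.98 and -1.33. FUOM, a mutarotase that turns fucose between its sugar forms, went from -0.90 to -3.35 and from -0.75 to -2.67 (adjusted p = 2.82e-06), and its differences were -0.84 and -1.14 on the other slides.

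ADAMTS1, a secreted metalloprotease, had levels of -0.92 and -2.97 on the HK-2 slide and -0.42 and -2.55 on the RPTEC/TERT1 slide (adjusted p = 1.01e-05). KCTD4 had levels of -0.87, -2.91, -0.86 and -3.42 in the same order (adjusted p = 7.4e-07), and LRRC19, a receptor-like protein of kidney and gut epithelium, of -0.71, -2.59, -1.58 and -4.16 (adjusted p = 1.44e-06). In all 3 genes both Empa arrays were below both controls. On the other slides ADAMTS1 differed by -0.14 and -0.54, and KCTD4 and LRRC19 were not well above background there. TSPAN1, a tetraspanin of epithelial membranes, went from 5.60 to 2.13 and from 5.06 to 3.65 (adjusted p = 8.67e-08), a larger drop on the noisy slide, and was lower by -1.09 and -1.06 on the others.

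**Figure D3:**
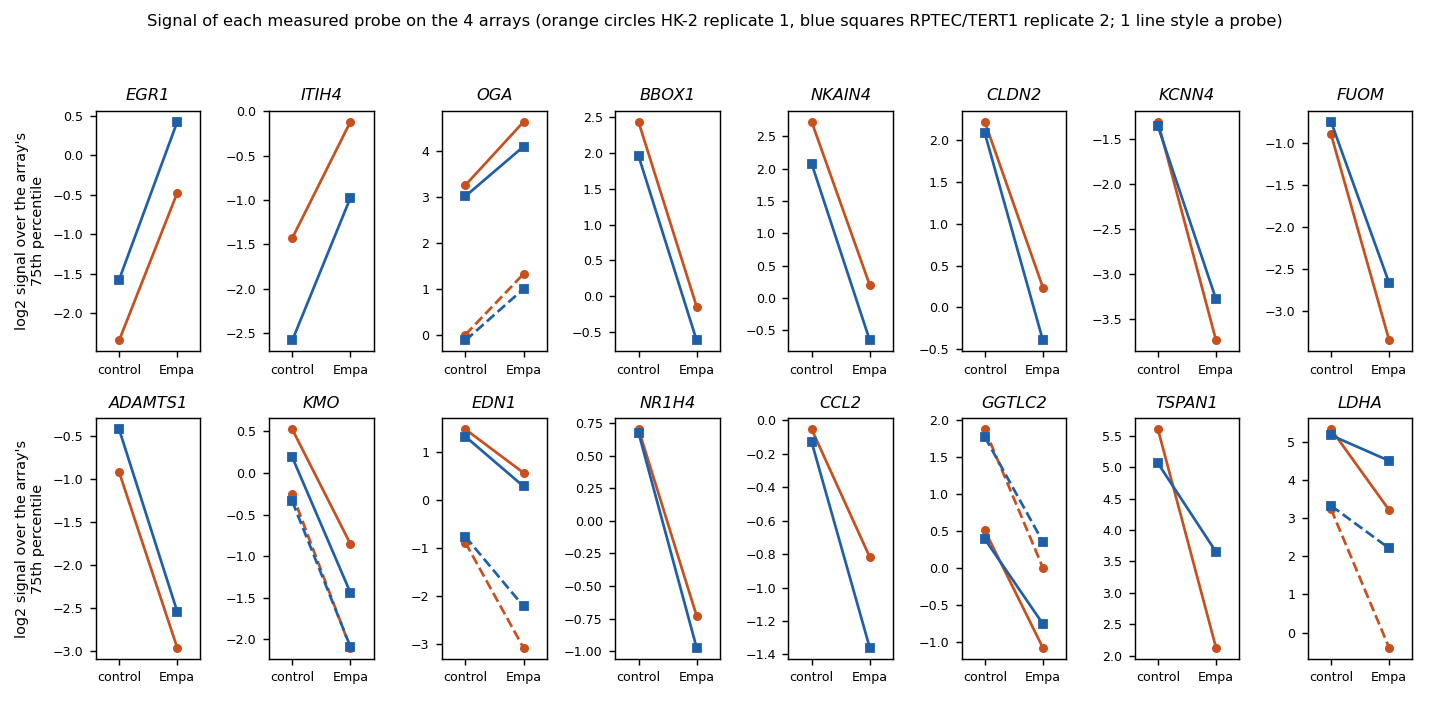
Log2 level, relative to the 75th percentile of each array, of the measured probes of 16 genes on the 4 arrays, with control and Empa of a slide joined by a line (orange HK-2, blue RPTEC/TERT1, 1 line style a probe); each panel has its own vertical range. In BBOX1, NKAIN4 and CLDN2 both lines run down by 1.98 or more, and in EGR1 both run up, by 1.87 and 2.00.

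Among genes with several probes, KMO was lower by the largest smallest change. KMO hydroxylates kynurenine in tryptophan breakdown. Its probes had levels of 0.53 and -0.85 on the HK-2 slide and 0.19 and -1.44 on the RPTEC/TERT1 slide (adjusted p = 0.00534), and of -0.25, -2.10, -0.34 and -2.09 in the same order (adjusted p = 0.000418). All 4 probe and slide pairs fell by between -1.38 and -1.85. GGTLC2, a light chain of the gamma-glutamyltransferase family, had levels of 0.50, -1.08, 0.39 and -0.76 by its first listed probe (adjusted p = 0.0164) and of 1.87, -0.00, 1.77 and 0.35 by the other (adjusted p = 0.00172). It was lower on the other slides by both probes, by -0.59 to -1.24. A probe of GGT1, the brush border enzyme that splits glutathione, fell as well (-1.77 and -1.31, adjusted p = 0.004), and its other probe differed by -0.65 and -0.58 (adjusted p = 0.485). The members of this family are nearly alike, so the array cannot say which of them gave these signals.

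In 10 genes with 2 or more probes every probe passed the test, OGA higher and ATP1A4, GGTLC2, GPX3, KMO, PVR, SLC15A4, STAT3, WFDC2 and, counting a probe placed on another chromosome, LDHA lower. The HK-2 slide carried several of them. STAT3, a transcription factor of cytokine signals, had mean differences of -2.40 on the HK-2 slide and -0.50 on the RPTEC/TERT1 slide, and of 0.03 and -0.21 on the other slides. GPX3, the extracellular glutathione peroxidase made by the proximal tubule, had -2.76 and -0.43, and 0.37 and -0.12 on the others. WFDC2, a secreted protease inhibitor, was lower by -1.49 and -1.01 by its first listed probe (adjusted p = 0.0357) and by -2.40 and -0.95 by the other (adjusted p = 0.0013), and its other slides gave -0.42 to -0.66. SLC15A4, a lysosomal transporter of histidine and peptides, was lower by between -0.77 and -2.25 over probes and slides and was lower on the other slides as well, by -0.31 to -0.61. In UPP1, a uridine phosphorylase, 1 of 2 probes fell (-1.74 and -1.24, adjusted p = 0.0062). KIRREL1, a cell adhesion protein of the nephrin family, fell by its first listed probe (-3.25 and -1.26, adjusted p = 1.25e-06), and its other probe was lower by -0.69 and -0.79 (adjusted p = 0.358). MYO18A, an unconventional myosin, fell by 1 of 2 probes (-1.70 and -0.70, adjusted p = 0.0463), and FBLIM1, which links filamin to cell adhesions, was lower by -0.71 to -1.14 without passing (adjusted p of 0.26 and 0.102).

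LDHA, which turns pyruvate into lactate, fell on these slides. Its brighter probe had levels of 5.33 on the HK-2 control array and 3.21 with Empa, and 5.17 and 4.50 on the RPTEC/TERT1 arrays (adjusted p = 0.0135), and the dimmer probe 3.23, -0.40, 3.32 and 2.21 (adjusted p = 2.23e-07). The array annotation assigns both probes to LDHA by accession but places the dimmer one at chr9:14921817-14921876 (hg19) and the brighter one on chromosome 11, so whether the dimmer probe reads LDHA alone was not tested. By both probes the Empa arrays lay below the controls, with the larger drop on the noisy slide. On RPTEC/TERT1 replicate 1 the probes differed by 0.41 and 0.51 and on HK-2 replicate 2 by -0.00 and -0.09, and the test of the difference between the slide pairs did not pass (adjusted p = 0.475 and 0.443). Both probes of ATP1A4, a Na+/K+-ATPase alpha subunit known from sperm, fell, by -2.08 and -0.94 (adjusted p = 0.00496) and by -2.31 and -1.09 (adjusted p = 0.00106). On the other slides they differed by 0.13 and -0.53 and by 0.51 and 0.14, and the genes of this family are similar in sequence, so which of them these probes read cannot be told apart here.

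EGR1, an immediate-early zinc finger factor induced by growth signals, was the highest increase. Its level was -2.34 on the HK-2 control array and -0.47 with Empa, and -1.57 and 0.43 on the RPTEC/TERT1 arrays. Both Empa arrays lay above both controls. It rose 3.65-fold and 4.00-fold (adjusted p = 0.000104, limma, and 0.0401 with GC content taken out), and differed by 0.35 and 0.47 on the other slides. EGR1 was measured by 1 probe, in a list of AP-1 and immediate-early genes of which 17 of 28 were measured. In that list EGR1 rose and probes of MAFF and IER3 fell, while FOS, FOSB, JUNB and NR4A1 were not well above background on all 4 arrays. MAFF, a small Maf factor, went from -1.27 to -3.96 and from -1.61 to -2.84 (adjusted p = 8.26e-05).

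OGA, the enzyme that takes O-linked N-acetylglucosamine off proteins, rose by both of its probes. The first listed had levels of 3.26 and 4.63 on the HK-2 slide and 3.02 and 4.10 on the RPTEC/TERT1 slide (adjusted p = 0.0414), and the other 0.00, 1.32, -0.12 and 1.00 (adjusted p = 0.0425). Both Empa arrays were above both controls by either probe. With GC content taken out neither probe passed (0.127 and 0.241), and the other slides gave 0.22 and 0.28 by the former probe and -0.18 and 0.46 by the latter. ITIH4, an acute-phase protein of the inter-alpha-trypsin inhibitor family, went from -1.43 to -0.12 and from -2.58 to -0.97 (adjusted p = 0.00792, and 0.0494 with GC content taken out) and was higher on the other slides by 0.43 and 0.75. SCARNA13, a small RNA of Cajal bodies, went from -1.56 to -0.32 and from -1.52 to -0.25 (adjusted p = 0.0354), with 0.91 and 1.05 on the other slides.

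The other genes that were higher by several probes were mostly short of the threshold. FPGT, which activates fucose for storage as a sugar nucleotide, was higher by 1.16 and 0.95 by its first listed probe (adjusted p = 0.105) and by 1.13 and 0.87 by the other (adjusted p = 0.138), and higher on the other slides by 0.56 to 1.54. A probe each of ZDHHC11, a palmitoyltransferase, and of SLC25A27, a mitochondrial carrier, rose (adjusted p = 0.025 and 0.0284). One of the measured probes of SPEF2, a protein of the sperm flagellum and cilia, rose as well (adjusted p = 0.012). The probes of MDM1, ZNF789, L3MBTL1, BTN2A1, PABIR2, POLR3GL and RPRD1A were higher on both slides by between 0.48 and 1.43, with adjusted p from 0.0624 to 0.543. Among genes with 1 measured probe, MAP6, a microtubule-stabilizing protein, rose from -3.34 to -1.93 and from -3.86 to -2.55 (adjusted p = 0.0173), and its differences were 0.03 and 0.02 on the other slides. SNAR-C4, a small noncoding RNA of a family of near-identical copies, rose from -3.55 to -2.08 and from -4.02 to -2.71 (adjusted p = 0.0137). It differed by -0.41 on HK-2 replicate 2 and was well above background on 1 of 2 arrays of RPTEC/TERT1 replicate 1. PHF21B, a chromatin-binding protein, rose by 1.49 and 1.22 (adjusted p = 0.0181), with -0.34 and 0.16 on the others.

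In some called genes the slides or probes differed. SPEM2 differed by 3.21 on the HK-2 slide and by -0.07 on the RPTEC/TERT1 slide (adjusted p = 0.00318). BICDL2 differed by 2.94 and 0.12 (adjusted p = 0.00427). In both the increase stood on the HK-2 slide only. In DBNL, an actin-binding adaptor, 1 probe rose (1.88 and 1.63, adjusted p = 0.00059) and the other was lower (-1.34 and -0.42, adjusted p = 0.223). The called PDE4DIP probe differed by 2.99 and 0.73, while another of its probes differed by 0.00 and -0.10.

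The 8 control and Empa arrays of the series allow these genes to be looked up on slides that did not choose them. Of the 467 genes higher by 0.5 or more, 409 were measured on the other slides, RPTEC/TERT1 replicate 1 and HK-2 replicate 2. Of these, 204 (49.9%) were higher on both, against 30% of the 11327 genes measured there, while 78 (19.1%) were lower on both. Of the 413 lower genes 330 were measured there, and 221 (67.0%) were lower on both, against 39.6%, and 24 (7.27%) were higher on both. With 2 or more probes, 7 of 8 higher genes and 14 of 20 lower genes kept their direction on both other slides. Across all probes the differences correlated with r = 0.349 between these slides and with r = 0.427 between the other slides. Between these slides and the others r lay between 0.0664 and 0.316. With RPTEC/TERT1 replicate 1, r was 0.0708 for the HK-2 slide and 0.0664 for the RPTEC/TERT1 slide, and with HK-2 replicate 2 it was 0.233 and 0.316. The Spearman correlation of the difference with GC content was 0.015 on RPTEC/TERT1 replicate 1 and -0.449 on HK-2 replicate 2. The part of GC content in the shared directions was not tested. Differences of the chosen genes were smaller there, with medians of 0.03 and 0.30 for the higher genes and -0.18 and -0.57 for the lower genes. A test of whether the Empa effect differed between the slide pairs called 0 of 16900 probes (limma, lowest adjusted p = 0.0768), with 1576 at an unadjusted p under 0.05. Fitted on all 12 arrays it called 2 of 16804 probes. The lack of calls with so few arrays does not show that the slide pairs are alike.

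**Figure D4:**
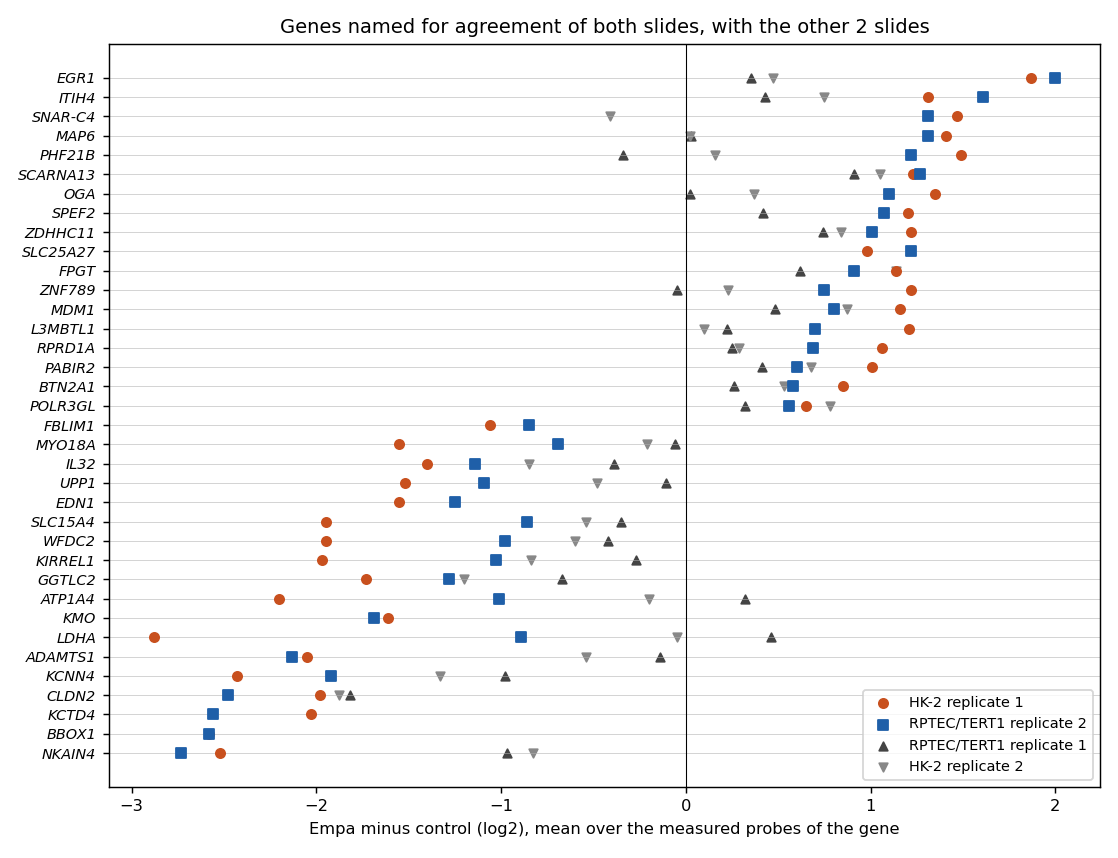
Empa minus control (log2, mean of the probes of a gene) on all 4 slides for the 36 genes with the largest smallest change, 12 higher and 12 lower with several probes and 6 and 6 with 1 probe, with points on the other slides only where the gene was well above background. Of the 28 genes measured on both other slides 24 had the same direction on all 4 slides, and ZNF789, ATP1A4, LDHA and PHF21B did not.

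CCL2 and EDN1, the chemokine MCP-1 and the vasoconstrictor endothelin-1, were the genes that the study took further. CCL2 had levels of -0.05 on the HK-2 control array and -0.82 with Empa, and -0.13 and -1.36 on the RPTEC/TERT1 arrays. Both Empa arrays were lower, by -0.76 and -1.23, and the difference did not pass the test (adjusted p = 0.138). On the other slides CCL2 was not well above background on any control or Empa array. EDN1 was read by 2 probes, at chr6:12296672-12296731 and chr6:12296218-12296277 on hg19. The former, brighter one had levels of 1.48, 0.57, 1.33 and 0.29 (adjusted p = 0.152) and the dimmer one -0.89, -3.08, -0.76 and -2.22 (adjusted p = 0.000345, and 0.0494 with GC content taken out). All 4 probe and slide pairs were lower with Empa, by between -0.91 and -2.19. On the other slides the dimmer probe was not well above background, and the brighter one differed by -0.56 on HK-2 replicate 2 and was well above background on 1 of 2 arrays of RPTEC/TERT1 replicate 1.

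The study picked a cluster of inflammatory genes on these same samples partly for being lower with Empa, so their direction here is not independent evidence. The same holds for the study's longer list of genes picked this way, which includes CXCL1, CXCL2, C3, ADAMTS1, KCTD4, MAFF and GBP2. The list used here holds 11 of the cluster's genes, fewer than the study counted in it, so the counts here do not cover the whole cluster. Of these, 9 were measured, 7 were lower on both slides, and NR1H4, EDN1 and ASS1 had a probe that fell. NR1H4, the bile acid receptor FXR, had levels of 0.70, -0.73, 0.68 and -0.97 (adjusted p = 0.00413), and was lower by -1.04 on HK-2 replicate 2, while on RPTEC/TERT1 replicate 1 it was well above background on 1 of 2 arrays. ICAM1 was lower by -0.56 and -0.80 (adjusted p = 0.42) and SRC by -0.42 on each slide (adjusted p = 0.676). CEBPB differed by 0.14 and 0.07 (adjusted p = 0.938), and the probes of RELA, the p65 subunit of NF-κB, went in different directions on the RPTEC/TERT1 slide (-0.23 and 0.23). LCN2 and CCL3L3 were not well above background on any of the 4 arrays.

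In the wider list of NF-κB and inflammatory response genes, 30 of 50 were measured. Of these 15 were lower on both slides and 4 higher, against 23.5% and 30.2% of all genes, and 6 had a probe that fell. The median of the list was -0.33, against 0.03 over all genes, and -0.07 after normexp background correction, against 0.13 over all genes. The 6 genes were EDN1, CXCL1 and CXCL2, chemokines for neutrophils, IL32, the complement component C3 and the acute-phase protein SAA1, whose probe may also read SAA2. EDN1, CXCL1, CXCL2 and C3 are among the genes the study picked on these samples partly for being lower with Empa. The counts and median of this wider list are therefore not independent evidence either. IL32 went from -1.19 to -2.87 and from -1.03 to -2.56 by the probe that passed (adjusted p = 0.00232). Its other probe differed by -1.11 and -0.75 (adjusted p = 0.183), and both were lower on the other slides, by -0.39 to -0.88. CXCL8, CCL20, VCAM1 and PTGS2 were not measured on all 4 arrays. The list medians on the other slides were -0.06 and -0.16.

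Among transporters, no sodium-glucose or glucose transporter gene passed the test (8 of 19 measured, median 0.11). SLC5A2, the target of Empa, had levels of -2.85 on the HK-2 control array and -2.74 with Empa, and -2.32 and -2.93 on the RPTEC/TERT1 arrays. The differences of 0.11 and -0.61 had opposite directions (adjusted p = 0.823), and SLC5A1 was not well above background on any of the 4 arrays. Of the transporters and brush border genes of the proximal tubule 25 of 45 were measured, 11 lower and 5 higher on both slides, with a median of -0.17, and a GGT1 probe fell. TXNIP, an inhibitor of thioredoxin whose level rises with glucose, was higher by 0.77 and 0.89, which did not pass (adjusted p = 0.274), and ARRDC4, its relative, by 0.52 and 0.50 (adjusted p = 0.583). In the glycolysis list of 30 genes 25 were measured, 11 were lower and 4 higher on both slides with a median of -0.27, and only LDHA had a called probe. Of 6 measured gluconeogenesis genes 5 were lower on both slides and 0 higher, with a list median of -0.44, and none passed. The list median was 0.01 on RPTEC/TERT1 replicate 1 and -0.36 on HK-2 replicate 2. With normexp it was -0.15 on the slides used here, against 0.13 over all genes. For comparison, 23.5% of all genes were lower and 30.2% higher on both slides, and 2.18% had a probe that fell.

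Of 48 listed oxidative phosphorylation genes on the array 45 were measured, and 5 had a probe that fell, among them NDUFA9, ATP5F1B, SDHA and SDHC, against 2.18% of all genes. Their mean differences were larger on the noisy slide. NDUFA9, a subunit of complex I, differed by -2.55 on the HK-2 slide and by -0.48 on the RPTEC/TERT1 slide (adjusted p = 0.00483), and by -0.18 and -0.11 on the others. The median of the list was -0.03, with 14 genes lower and 7 higher on both slides, against 23.5% and 30.2% of all genes. In the fatty acid oxidation list 37 of 45 were measured, 10 higher and 10 lower, with a median of -0.03. Ribosomal protein genes, with 48 measured, had 0 called probes and a median of -0.19, and 35 of them had no shared direction.

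**Figure D5:**
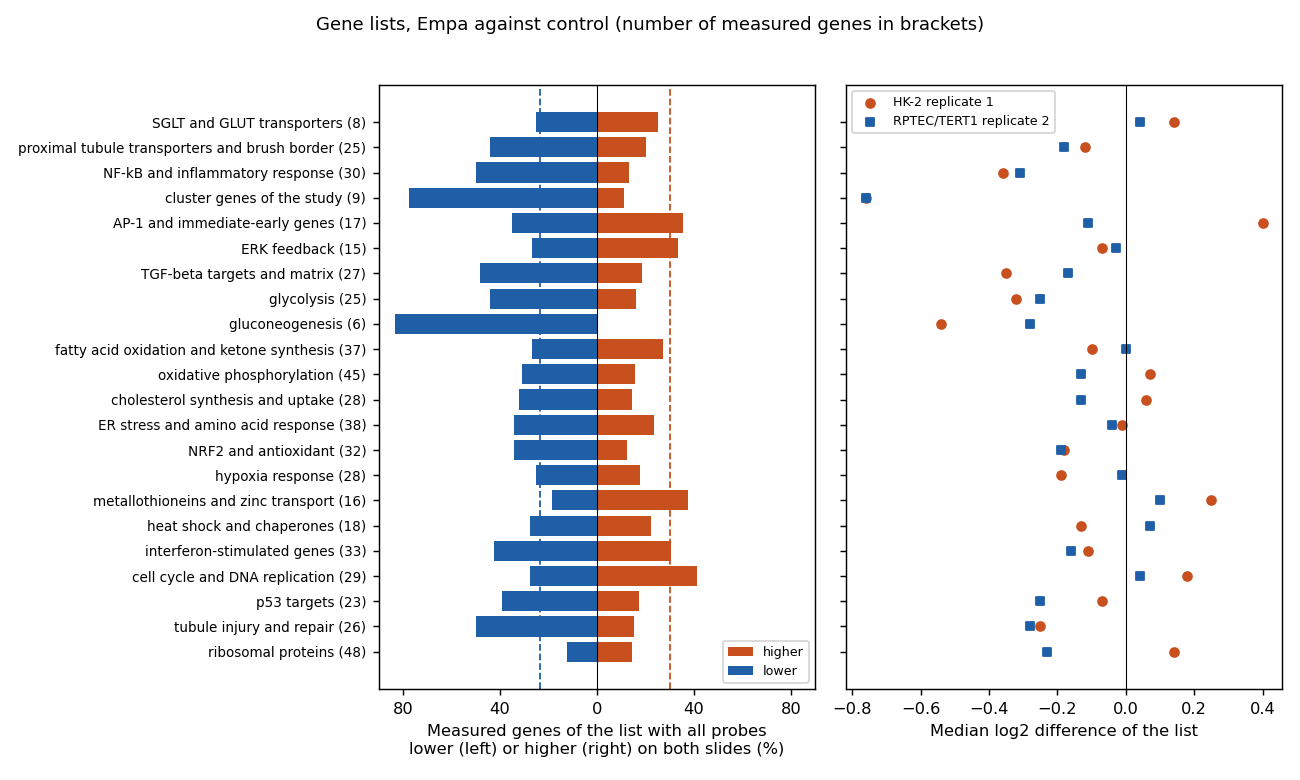
Left, share (%) of the measured genes of each list with all probes lower (blue) or higher (orange) on both slides, with dashed lines at the shares of all genes (23.5% and 30.2%); right, median Empa minus control (log2) of the list on each slide. Many lists have medians below 0 on both slides, among them gluconeogenesis, NF-κB, glycolysis, tubule injury, TGF-β and NRF2. The medians of the metallothionein, glucose transporter and cell cycle lists lie above 0 on both.

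Among stress and amino acid genes some decreases recurred on the other slides and others did not. NUPR1, a small stress-induced chromatin protein, went from 1.92 to -0.13 and from 1.44 to -0.14, with both Empa arrays below both controls (adjusted p = 0.000348). It was lower by -1.22 and -1.07 on the other slides. SLC7A5, a large neutral amino acid transporter, went from 1.30 to -0.41 and from 0.93 to -0.31 (adjusted p = 0.00692), with -0.17 and -0.51 on the others. SLC7A1 was lower by -1.07 and -1.05 without passing (adjusted p = 0.102, limma), with 0.07 and 0.01 on the others. PHGDH was lower by -1.58 and -0.77 (adjusted p = 0.0542, limma), with 0.07 and -0.31 on the others. The list of 42 ER stress and amino acid genes on the array, 38 of them measured, had a median of 0.02, with 13 lower and 9 higher on both slides. Of the NRF2 and antioxidant genes 32 were measured, GPX3 fell, and the median was -0.22. Of the p53 targets 23 were measured, 9 were lower and 4 higher on both slides, and probes of CDKN1A, ZMAT3, AEN and CCNG1 fell. Of all genes 23.5% were lower and 30.2% higher on both slides, and 2.18% had a probe that fell. CDKN1A, the p21 cell cycle inhibitor, went from -1.88 to -3.66 and from -2.25 to -3.12 (adjusted p = 0.0216), and differed by 0.06 and -0.31 on the other slides.

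Of the interferon-stimulated genes 33 of 45 were measured, and probes of 4 genes, GBP2, IFI44L, IFIT3 and IFITM1, fell, against 2.18% of all genes. IFI44L went from -0.85 to -2.83 and from -0.50 to -1.42 (adjusted p = 0.00832), and was lower by -1.05 and -0.80 on the others. The list median was -0.01, with 14 genes lower and 10 higher on both slides, against 23.5% and 30.2% of all genes. TGF-β targets and matrix genes, with 27 of 38 measured, had 13 lower and 5 higher on both slides and a median of -0.16 (0.01 after normexp), and ITGB6, the integrin subunit that activates TGF-β, fell (-1.49 and -1.19, adjusted p = 0.0195). CCN2, a matricellular TGF-β target, was higher by 0.75 and 0.96, which did not pass (adjusted p = 0.247). Of the tubule injury and repair genes 26 of 35 were measured, 13 were lower and 4 higher on both slides with a median of -0.34. In this list a probe each of CLU and KRT8 fell, and CLU, the chaperone clusterin, had mean differences of -3.06 on the HK-2 slide and 0.05 on the RPTEC/TERT1 slide. MMP7, a matrix metalloproteinase released by injured tubules, went from 3.99 to 2.85 and from 4.00 to 2.83 and missed the threshold (adjusted p = 0.0607).

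Cell cycle and DNA replication genes were near 0 in the median on these slides. Of 50 genes 29 were measured, 12 were higher and 8 lower on both slides, none passed, and the median was 0.12, against 0.73 and 0.80 on the other slides, a difference of the list that was not tested. CDK1, the mitotic kinase, was higher by 0.73 and 0.58 (adjusted p = 0.45) and by 1.47 and 1.54 on the others. Of the remaining lists, the ERK feedback genes (15 measured, 1 with a probe that fell) had a median of -0.19, cholesterol synthesis and uptake (28, 1) -0.08, hypoxia response (28, 1) -0.08, metallothioneins and zinc transport (16, 1) 0.24, and heat shock and chaperones (18, 1) 0.01. Over all genes measured, 30.2% were higher and 23.5% lower on both slides, 2.18% had a probe that fell, and the median was 0.03. SYNPO and CD68, in the lists of podocyte and leukocyte markers, had probes that fell. SYNPO, an actin-bundling protein, had 3 probes, all lower on both slides, with adjusted p of 2e-06, 0.0039 and 0.34, while PODXL, another podocyte marker, was higher without passing (1.66 and 0.69, adjusted p = 0.0542) and NPHS1 and WT1 were not measured. The lysosomal protein CD68 differed by -2.12 and -1.03 (adjusted p = 0.00308), while PTPRC differed by 0.55 and 0.02 and CD3E and CSF1R were not measured, and the part of other cell types in these results was not tested.

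The promoter stretches of the higher and lower genes were searched for the same motifs. Of the 317 genes lower by 0.5 or more with a promoter in the table, 9.46% held an NF-κB site and 5.99% an AP-1 site, against 5.96% and 2.72% of the 9937 measured genes with a promoter. Of the 371 higher genes 3.77% and 1.89% did. A CArG box stood in 0.946% of the lower, 1.35% of the higher and 0.956% of the measured genes. These shares are a description and were not tested.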

How the data were processed

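Agilent one-colour 4x44K arrays were read by the authors with Agilent Feature Extraction 9.5.3.1. Per the file headers, the deposited intensity of a spot has its background subtracted and spatial trends removed, and arrays were not normalized to each other. A further deposited table holds log2 values called quantile-normalized, which served as an alternative.

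Of 44495 spots, 1377 control spots and all outliers were dropped, and spots were averaged into 34127 probes. Signals were scaled to the 75th percentile (295.3 to 455.5 signal units), floored at 1 unit and log2-transformed. On an array between 53.51% and 58.61% of probes were well above background and 31 to 121 saturated, none of these in a called gene named here. The 17027 probes above background on all 4 arrays were used. Genes that Empa took below background are not covered: 77 probes were above it on both controls and neither Empa array, and 232 the reverse. Probes were named by RefSeq accession (26377), current symbol (2223) or older symbol (342), and 5185 kept the file's name.

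limma 3.58.1 in R 4.3.3 was fitted with the slide as a block, since control and Empa of a slide share line, replicate number and slide, with two-sided p adjusted by Benjamini-Hochberg over all probes at 0.05. Every adjusted p is from limma. The methods give biological duplicates and name no test for the arrays. Genes named were those with the largest smallest change (12 higher and 12 lower with several probes, 6 and 6 with 1), up to 10 called probes in each direction, up to 4 agreeing genes of a list, and the study's cluster genes. Other genes were chosen with their values known. The arrays, lists and rules were chosen with earlier results of these data known. Alternatives were other normalizations, normexp with an offset of 50, other filters and sets of arrays, and each array left out. The GC correction was chosen after seeing the data. The procedure was tested on simulated data. Some genes of the lists are not reported here.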

Additional observations from a re-analysis of the deposited data

Results flagged for a closer look

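Some named genes moved one way on both of these slides and the opposite way on the other slides, RPTEC/TERT1 replicate 1 and HK-2 replicate 2. The difference between the slide pairs, in mean log2 change, was tested with limma's interaction term for each, and none passed, with adjusted p between 0.323 and 0.663. Among these genes the difference of largest size was that of BICDL2, at 2.04, where the HK-2 slide carried 2.94 and the RPTEC/TERT1 slide 0.12 (adjusted p = 0.509). AURKA, a mitotic kinase, differed by -1.96, being lower here (-1.25 and -0.43) and higher on the other slides (1.25 and 0.97, adjusted p of the difference 0.323). CCNB2, a mitotic cyclin, differed by -1.78 (-0.90 and -0.75 here, 0.73 and 1.17 elsewhere, adjusted p = 0.323). INSIG1, a sterol-sensing brake on cholesterol synthesis, differed by -1.79 (-0.61 and -0.46 here, 0.39 and 2.12 elsewhere, adjusted p = 0.467), and the sterol pathway enzymes IDI1 and HMGCS1 by -0.97 and -0.59.

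SLC7A1, a cationic amino acid transporter, differed by -1.1, with -1.07 and -1.05 here and 0.07 and 0.01 on the other slides (adjusted p = 0.475). PPARD differed by 0.93, the zinc transporter SLC30A2 by 1.17, the metallothionein MT1M by 0.63, the chaperone HSPA2 by -0.88, RPS23 by 0.43, EPCAM by 0.45, DPT by 0.46 and CEBPB by 0.63.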

How the results depend on the processing

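The number of probes past the threshold was 344 and depended on most choices. In limma it was 0 without the replicate block (1340 at an unadjusted p under 0.05), with normexp (352), with the authors' table (2255), with no filter on dim probes (2679) and with array weights over 12 arrays (1480). It was 9 with 6 arrays, 48 with 12 arrays, 9 with the 75th percentile of detected probes, and 26 with GC content taken out, all 26 among the 344. With quantile normalization it was 408, with cyclic loess 440 and with the filter in one group 497. Leaving out single arrays gave between 0 and 5469: 0 without the HK-2 or the RPTEC/TERT1 control array (1374 and 3352 at an unadjusted p under 0.05), 7 without the HK-2 Empa array, all lower and among them CLDN2 and NKAIN4, and 5469 without the RPTEC/TERT1 Empa array, where the noisy HK-2 slide decides the effect and its spread is taken from other slides.

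The counts of genes higher and lower by 0.5 or more, 467 and 413, were 155 and 183 with normexp, 139 and 183 with the authors' table, 892 and 811 with no filter, 2762 and 2658 on the HK-2 slide alone and 894 and 879 on the RPTEC/TERT1 slide alone. Quantile normalization kept 397 and 387 of these genes and GC correction 306 and 308. The interaction gave 2 calls with 12 arrays and 0 with no replicate block (739 at an unadjusted p under 0.05). The correlation of the slides lay between 0.302 and 0.449 over all settings. Directions reversed for CEBPB with normexp (-0.01), for SLC5A2 with normexp (0.19), without the RPTEC/TERT1 Empa array (0.14) and on the HK-2 slide alone (0.11), and for SPEM2 without the HK-2 Empa array (-0.32) and on the RPTEC/TERT1 slide alone (-0.07). With single arrays left out SLC5A2 lay between -0.65 and 0.14 and SPEM2 between -0.32 and 3.46. Of 120 list medians under other settings 42 moved. The causes were not tested. With the slide as the pair, the deviations of control and Empa arrays from their group means correlated with r = 0.224. Signal over background limits dim probes, since values near it have no order.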
